A study of Homo sapiens with 132 samples.

Results

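The claudins and the other core genes of the tight junction were followed by RNA sequencing in cell lines of gastric cancer. The genes were chosen by name: CLDN1, CLDN2, CLDN3, CLDN4, CLDN7, CLDN12, CLDN18, CLDN23, OCLN (occludin) and TJP1 (ZO-1). All 10 of 10 were found among the 65217 Ensembl gene identifiers of the deposited counts. The libraries came from 4 established lines, MKN1, MKN7, NCI-N87 and Hs746T, which all derive from metastatic sites, and covered 44 conditions with 3 replicates each. Each line had untreated libraries and libraries with 5 μg/ml of trastuzumab, 0.5 μM of afatinib or both drugs together, collected 4 h or 24 h after the start of treatment. In MKN1 and Hs746T there were 3 further treatments, namely 5 ng/ml of EGF, 1 μg/ml of cetuximab, and the growth factor and this antibody combined. EGF is a ligand of the receptor EGFR, cetuximab an antibody that blocks EGFR, trastuzumab an antibody against HER2 (ERBB2), and afatinib an irreversible kinase inhibitor of both receptors. Afatinib was compared with untreated cells, and no library of solvent-treated cells was analysed here. A line stands for 1 tumour, Hs746T cells grew in DMEM and the other lines in RPMI, so line and medium cannot be told apart where Hs746T is compared.

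Tight junctions close the space between neighbouring epithelial cells. Claudins are membrane-spanning proteins whose outer loops join across that space: some seal it (CLDN1, CLDN3, CLDN4 and CLDN7 are usually counted among these), whereas CLDN2 forms a pore for cations and water. Occludin lies in the same strands, and TJP1 ties claudins and occludin to the actin cytoskeleton. CLDN18 has an isoform made in the stomach, which is the target of therapeutic antibodies in gastric cancer. Carcinoma cells that lose epithelial features often lose claudins, and transcription factors such as ZEB1, SNAI1 and SNAI2 are known to bind E-boxes in promoters of epithelial genes.

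The libraries held between 25832557 and 69434151 counts (median 50725775). Levels are given as CPM, that is TMM-scaled counts relative to the library total. The smallest level of note, 3 counts, was 0.0432 CPM where the depth was greatest and 0.116 where it was least, a limit for counting error only. CLDN2 was listed at 0 in every library, and 1970 of 19674 protein-coding genes (10.0%) were listed so. CLDN2 was therefore tested nowhere. CLDN3 had 0 counts in 3 libraries, all of Hs746T, and was left out of the tests within that line by the filter on low counts. Thus 9 members were tested in MKN1, MKN7 and NCI-N87 and 8 in Hs746T. Raw counts of single libraries ran from 171 to 51849 for CLDN4 and from 3396 to 17634 for TJP1, but only from 7 to 265 for CLDN18 and from 7 to 419 for CLDN12, so that the levels of these last 2 are the least precise. In bulk libraries, fewer expressing cells and less RNA per cell cannot be told apart.

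On GRCh38 (GENCODE release 29), CLDN3 (ENSG00000165215, chr7:73768997-73770270, minus strand) and CLDN4 (ENSG00000189143, chr7:73799542-73832693, plus strand) lie close together, and CLDN12 (ENSG00000157224, chr7:90383721-90513402, plus strand) lies on the same chromosome. CLDN1 (ENSG00000163347, chr3:190305701-190322475, minus strand) and CLDN18 (ENSG00000066405, chr3:137998735-138033655, plus strand) lie on chromosome 3. CLDN7 (ENSG00000181885, chr17:7259903-7263983, minus strand), OCLN (ENSG00000197822, chr5:69492292-69558104, plus strand), TJP1 (ENSG00000104067, chr15:29699367-29968865, minus strand) and CLDN2 (ENSG00000165376, chrX:106900164-106930861, plus strand) lie apart. CLDN23 has the identifier ENSG00000253958, and its surroundings are not shown. Of the 6741 exon bases of CLDN12, between 201 and 371 are shared with each of 4 genes on the same strand, GTPBP10, AC006153.1, CDK14 and AC002456.2, so that reads there may belong to any of them and the level of CLDN12 is uncertain. CLDN7 shares 269 of its 2492 exon bases with AC003688.1 on its strand. The counts are per gene and do not separate the isoforms of CLDN18.

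Bases upstream of the RefSeq transcription starts (GRCh38.p14) are shown for 3 members as examples. CLDN3 was nearly absent from Hs746T, and CLDN7 and CLDN4 were lower with EGF than without it in MKN1 at 24 h. RefSeq windows were matched for 9 of the 10 members (16 windows), and none for CLDN23. The letters searched on both strands were the E-box CAGGTG, the GC box GGGCGG, the AP-1 site TGAGTCA, the grainyhead core AACCGGTT and the TATA box TATAAA. Of the 35116 windows of this length, 17.5% hold the E-box, 42.6% the GC box, 4.20% the AP-1 site, 0.117% the grainyhead core and 10.7% the TATA box. No window of a member holds the grainyhead core, and the E-box is found in windows of CLDN7, CLDN18, OCLN and TJP1. The 250 bases upstream of CLDN3 (chr7:73770271-73770520, minus strand) hold 4 GC boxes, in capitals, and 71.6% of them are G or C:
CLDN3: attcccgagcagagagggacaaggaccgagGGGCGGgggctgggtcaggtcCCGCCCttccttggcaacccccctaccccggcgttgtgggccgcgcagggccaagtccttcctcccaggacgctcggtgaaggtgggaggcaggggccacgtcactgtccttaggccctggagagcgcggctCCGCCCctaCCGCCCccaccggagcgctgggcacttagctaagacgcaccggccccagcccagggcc
CLDN7 has 2 windows. The outer one (chr17:7263214-7263463, minus strand), which is free of exons, holds none of the motifs. The 250 bases upstream of the inner start (chr17:7262479-7262728, minus strand), which overlap exons of CLDN7, hold a GC box and 4 E-boxes, at 174, 135, 20 and 9 bases before the start. 3 stretches of 30 bases show them 5′ to 3′, with the E-boxes in capitals, and the last stretch holds the E-boxes at 20 and 9:
CLDN7 at 174: tttcttcctcctCACCTGggcaaggagggg
CLDN7 at 135: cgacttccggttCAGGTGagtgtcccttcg
CLDN7 at 20: cctacatatactCAGGTGcgcccCACCTGt
The window upstream of CLDN4 (chr7:73830746-73830995, plus strand) overlaps exons of CLDN4 and holds a GC box 47 bases before the start. It also holds an AP-1 site 161 bases before the start, in capitals in its 30 bases:
CLDN4 at 161: gagactggatagTGACTCAgggacccgggg
These matches describe letters and say nothing of which factors bound there in these cells.

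In untreated cells each line carried its own set of claudins. CLDN1, a sealing claudin, was high in MKN7 (96.0, 82.0 and 74.9 CPM in the 3 libraries at 4 h) and MKN1 (31.8, 34.2 and 48.0). It was near 1 CPM or below in NCI-N87 (0.845, 0.647 and 0.438) and Hs746T (1.08, 0.806 and 0.825). All libraries of the first pair of lines thus lay above all libraries of the second. CLDN3 reached 12.8, 14.0 and 12.4 CPM in MKN1, 7.43, 5.90 and 7.09 in MKN7 and 10.3, 9.50 and 11.1 in NCI-N87 at 4 h. In Hs746T, CLDN3 gave 28 counts in all over 6 untreated libraries, between 0 and 12 each, which is 0.0946 CPM unscaled with an exact 95% Poisson interval from 0.0628 to 0.137. The interval covers counting error only and leaves out the spread between libraries. The same sum in MKN1 was 5080 counts.

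CLDN4, another sealing claudin, was highest in NCI-N87, with 581, 609 and 690.0 CPM at 4 h, followed by Hs746T (325, 278 and 267) and MKN7 (159, 133 and 141). MKN1 stood far below with 5.09, 7.49 and 5.46. CLDN7, a claudin that binds EPCAM, was 62.2, 59.5 and 66.5 CPM in MKN7 and 40.0, 42.2 and 50.4 in NCI-N87, but 6.77, 9.98 and 11.5 in Hs746T and 0.772, 1.40 and 1.61 in MKN1. No library of one line overlapped with one of another for CLDN4 at 4 h. CLDN3 was therefore nearly absent from Hs746T, and CLDN1 was low both there and in NCI-N87. The CLDN4 of Hs746T lay between that of MKN7 and NCI-N87.

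The other members spanned less. OCLN was 25.6 ± 3.5 CPM in MKN7 and 22.6 ± 2.53 in NCI-N87 (mean ± SD, n = 3, 4 h), against 5.11 ± 0.490 in Hs746T and 3.51 ± 1.05 in MKN1. TJP1, the scaffold, was high in every line, from 104 ± 12.4 CPM in MKN1 and 157 ± 17.6 in Hs746T to 209 ± 28.4 in MKN7 and 219.8 ± 35.0 in NCI-N87. CLDN18 ran the other way and was highest in Hs746T (3.81, 3.90 and 3.57 CPM), above MKN7 (1.30, 1.24 and 1.24), MKN1 (0.984, 1.13 and 0.977) and NCI-N87 (0.764, 0.514 and 0.647). CLDN23, a claudin of less defined function, ranged from 2.86 ± 0.0484 CPM in MKN7 to 8.57 ± 1.36 in NCI-N87. CLDN12, an unusual claudin that lacks the common binding end for TJP1, ranged from 0.312 ± 0.0554 in MKN7 to 4.32 ± 1.08 in NCI-N87. Set per kilobase of exon, so that genes can be compared, the highest mean level among the members at 4 h was that of CLDN1 in MKN1 (10.4 CPM per kilobase, with CLDN3 at 10.3), of CLDN4 in MKN7 (30.7), NCI-N87 (133) and Hs746T (61.7).

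At 24 h the untreated lines kept much of this order. CLDN1 was at 119 ± 23.8 CPM in MKN7, 20.4 ± 5.63 in MKN1, 0.601 ± 0.242 in NCI-N87 and 0.555 ± 0.299 in Hs746T. CLDN3 was at 22.3 ± 1.44 in MKN1, 13.3 ± 1.56 in NCI-N87 and 13.0 ± 2.95 in MKN7, where the last 2 no longer differed beyond their spread. In Hs746T its 3 libraries held 0.0882, 0 and 0.0643 CPM. CLDN4 was at 613 ± 65.3 in NCI-N87, 348 ± 66.8 in Hs746T, 151 ± 16.4 in MKN7 and 13.5 ± 0.379 in MKN1. CLDN7 was at 67.9 ± 11.3 in MKN7 and 48.1 ± 3.87 in NCI-N87, and Hs746T (8.39 ± 2.16) and MKN1 (5.40 ± 0.739) had drawn closer. CLDN18 was highest in Hs746T again (3.44 ± 0.607), with 1.65 ± 0.310 in MKN7, 1.21 ± 0.0652 in MKN1 and 0.443 ± 0.112 in NCI-N87. OCLN stayed high in NCI-N87 (22.3 ± 2.55) and MKN7 (22.0 ± 2.17) and low in Hs746T (5.97 ± 1.14) and MKN1 (4.72 ± 1.25), and within each of these pairs the libraries overlapped.

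**Figure D1:**
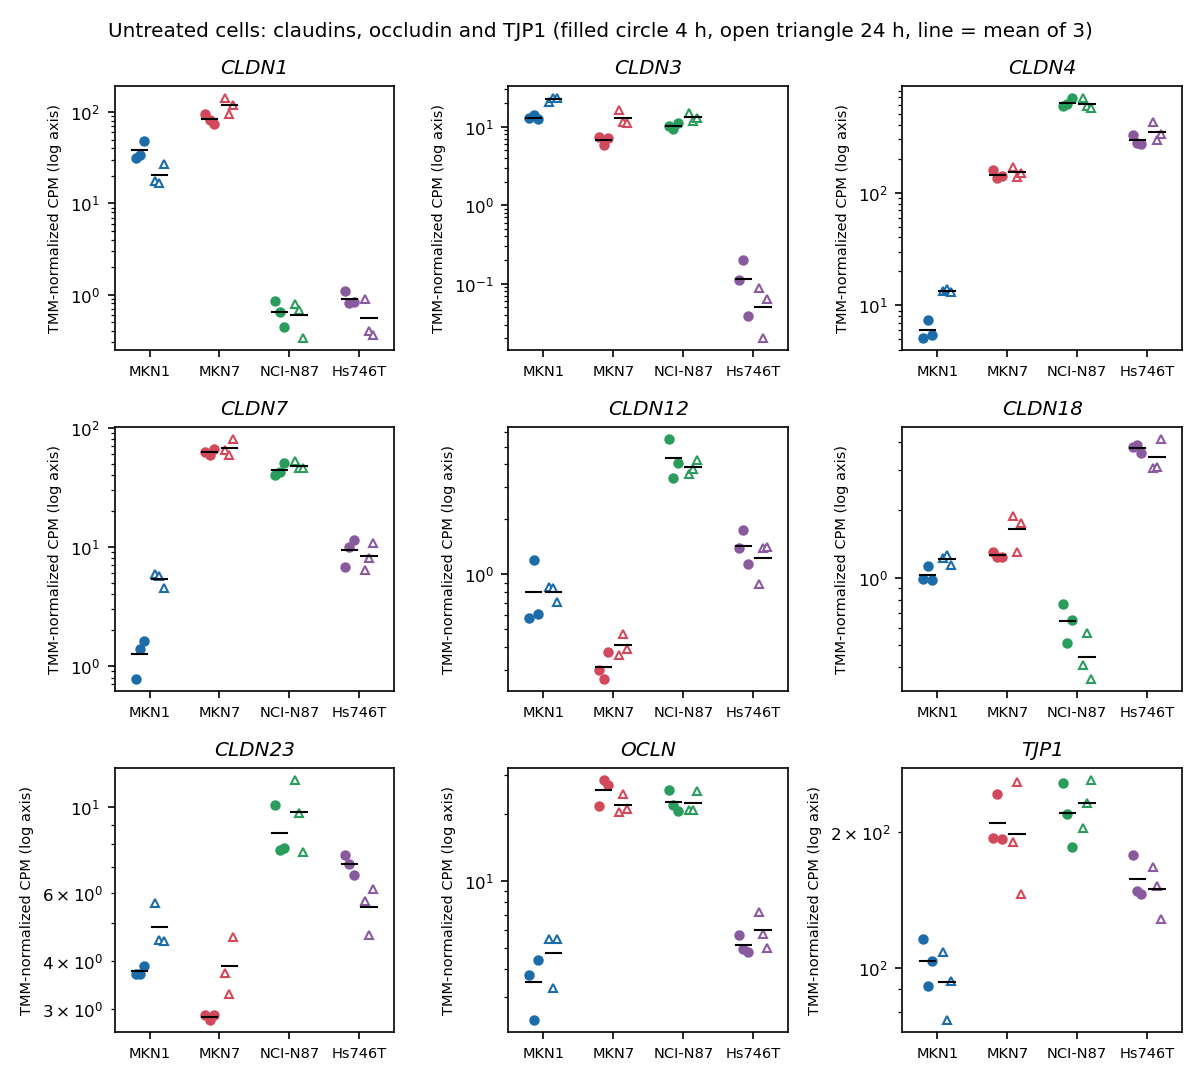
TMM-normalized CPM (log axis, each gene with its own scale) of 9 members in untreated cells of the 4 lines, with filled circles for the 3 libraries at 4 h, open triangles for those at 24 h and lines for the means; a library with 0 counts is drawn at 0.02. CLDN3 falls below 1 CPM in Hs746T, and CLDN1 lies near or below 1 CPM in Hs746T and NCI-N87. CLDN4 and CLDN7 are lowest in MKN1, and TJP1 stays between 76.7 and 259.8 CPM in every line.

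Each pair of untreated lines was compared over both times in 1 edgeR fit of the 24 untreated libraries. A gene was called changed at a Benjamini-Hochberg adjusted p below 0.05 over all genes tested, and p-values measure the spread between these libraries. The series describes its replicates as biological triplicates. Between MKN1 and MKN7, 9 of 9 members differed, where 75.8% of all genes did. Likewise 9 of 9 differed between MKN1 and NCI-N87 (78.7%), between MKN1 and Hs746T (79.9%) and between MKN7 and Hs746T (78.2%). MKN7 and NCI-N87 differed in 7 of 9 (76.8%), with OCLN (log2FC = 0.08, adjusted p = 0.609) and TJP1 (-0.15, 0.259) not passing. NCI-N87 and Hs746T differed in 8 of 9 (79.6%), and CLDN1 did not pass (log2FC = -0.24, SE 0.26, adjusted p = 0.416). With most genes differing between any 2 lines, the sizes say more than the counts.

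The largest log2 difference of a member between 2 lines was that of CLDN3 between MKN1 and Hs746T (log2FC = 7.61, SE 0.22, adjusted p = 7.32e-19). It rests on the few counts of Hs746T and is no bound on the fold. CLDN1 was higher in MKN7 than in NCI-N87 (log2FC = 7.32, SE 0.22, adjusted p = 2.39e-18) and higher in MKN1 than in Hs746T (log2FC = 5.26, SE 0.21, adjusted p = 2.61e-16). CLDN4 was lower in MKN1 than in NCI-N87 (log2FC = -6.07, SE 0.12, adjusted p = 4.51e-21), and CLDN7 was lower in MKN1 than in MKN7 (log2FC = -4.63, SE 0.17, adjusted p = 8.82e-17). CLDN12 was lower in MKN7 than in NCI-N87 (log2FC = -3.51) and CLDN18 was lower in NCI-N87 than in Hs746T (-2.77). OCLN was lower in MKN1 than in MKN7 by a log2FC of -2.51, but only -0.44 separated MKN1 from Hs746T. That last call was lost without replicate 1 or 2 (log2FC = -0.40 and -0.24, adjusted p = 0.0513 and 0.153). TJP1 differed least in size, with log2FC between -1.17 (MKN1 against NCI-N87) and 0.54 (NCI-N87 against Hs746T). CLDN18 separated MKN1 from MKN7 only narrowly (log2FC = -0.34, adjusted p = 0.0353). This call was lost with DESeq2 (0.0677), with library size alone, without the filter and with a stricter one, without replicate 1 or 3, and at either time alone. It was also lost with a replicate block shared by the lines (0.0564), although the replicate numbers did not pair libraries between lines. The difference of CLDN23 between MKN1 and MKN7 was lost without replicate 2 (adjusted p = 0.0668). That of CLDN3 between MKN7 and NCI-N87 was lost without replicate 2 or 3 (0.0993 and 0.156) and was -0.03 on the log2 scale at 24 h alone. That of TJP1 between MKN7 and Hs746T was lost without replicate 2 (0.209). CLDN7 was lower in MKN1 than in Hs746T by a log2FC of -2.91 at 4 h and -0.64 at 24 h.

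Markers of epithelial cells moved along this order in part, and their share in the differences of the claudins was not tested. CDH1 (E-cadherin) had a median of 253 CPM in untreated MKN7 and 265 in NCI-N87, against 2.18 in MKN1 and 0.778 in Hs746T. EPCAM, the partner of CLDN7, was 633, 507, 25.8 and 35.2 in the same order. The keratin KRT8 was present in each, but at 339.9 CPM in Hs746T against 3362 to 11378 in the other lines. Unlike CDH1 and EPCAM, the keratins KRT8, KRT18 and KRT19 were higher in MKN1 than in MKN7, each past a log2FC of 1. VIM, a mesenchymal marker, was 1494 CPM in Hs746T and 410.0 in MKN1 but 3.55 in MKN7 and 3.68 in NCI-N87, and ZEB1 was 55.6, 39.0, 3.58 and 9.80. Other mesenchymal markers set Hs746T apart but were not clearly higher in MKN1 than in MKN7: SNAI2 was 153, 9.44, 17.0 and 0.331 in the same order, FN1 2215, 641, 555 and 250.4, and CDH2 82.3 in Hs746T and at most 0.653 elsewhere. ZEB2, in contrast, was 26.5 in Hs746T and 1.72 in MKN1, against at most 0.349. Of markers of the gastric mucosa, TFF1 and GKN1 had medians at or below 1.21 CPM in every line, and MUC5AC was at 139 in NCI-N87 and at most 4.72 elsewhere. The leukocyte marker PTPRC had a median of at most 0.430 CPM in any line. Some markers of fibroblasts and endothelial cells were high in Hs746T: COL1A1 had 534 CPM against at most 14.6 elsewhere, COL1A2 174 against at most 0.276, and PECAM1 171 against at most 12.2. The defining markers DCN of fibroblasts and CDH5 of endothelial cells had medians of 0.127 and 0.0376 CPM there. CLDN4 did not follow CDH1: Hs746T, with the lowest CDH1, had more CLDN4 than MKN7, with high CDH1 (log2FC of MKN7 minus Hs746T = -1.13, adjusted p = 2.32e-10).

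Claudin levels also moved with time in culture in untreated MKN1 cells. From 4 h to 24 h, CLDN7 rose from 0.772, 1.40 and 1.61 CPM to 5.93, 5.71 and 4.55, and CLDN4 from 5.09, 7.49 and 5.46 to 13.4, 13.9 and 13.2. CLDN3 rose from 12.8, 14.0 and 12.4 to 20.6, 23.3 and 23.0, whereas CLDN1 fell from 31.8, 34.2 and 48.0 to 17.7, 16.6 and 26.9. In each of these the 2 times did not overlap. The test called 5 of 9 members (34.1% of all genes): CLDN7 (log2FC = 2.10, adjusted p = 5.01e-05), CLDN4 (1.15, 6.99e-05), CLDN3 (0.75, 7.95e-05), CLDN1 (-0.92, 0.00288) and CLDN23 (0.36, 0.0315). The median log2FC over the 9 members was 0.36, against 0.03 over all genes. Of the mesenchymal markers 3 of 6 were lower at 24 h, with VIM past a log2FC of 1 in size, as was 1 of 5 epithelial markers. Their part in these changes was not tested. With the replicate number as a block, a choice made after seeing the data, OCLN (log2FC = 0.41, adjusted p = 0.0116) and TJP1 (-0.18, 0.0462) passed too. CLDN1 did not pass without replicate 2 (adjusted p = 0.0805), and CLDN23 did not without replicate 1 or 2 (0.301 and 0.0956), without the filter (0.065) or with only the compared groups in the fit (0.079). Age of the culture and time since the change of medium cannot be told apart.

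In MKN7 the same interval changed 1 of 9 members (16.4% of all genes): CLDN3 rose from 7.43, 5.90 and 7.09 CPM to 16.4, 11.4 and 11.2 (log2FC = 0.90, SE 0.18, adjusted p = 0.00252; adjusted p = 0.0925 without replicate 1). With the block, CLDN23, OCLN and CLDN1 passed as well (adjusted p = 0.0197, 0.0277 and 0.0058). No member passed in NCI-N87 (0.267% of all genes, 1 of 9 members at an unadjusted p below 0.05 in edgeR) or in Hs746T (1.48%; 1 of 8), and DESeq2 called none either. CLDN3 had no test in Hs746T. A difference between lines in this change over time was not tested.

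Several claudins were lower with EGF than without it in MKN1 cells, mainly after 24 h. For each treatment, a rise or fall is the difference from untreated cells at the same time. CLDN18 was the member called after 4 h: its 3 libraries held 0.562, 0.552 and 0.451 CPM against 0.984, 1.13 and 0.977 in untreated cells (log2FC = -0.95, SE 0.22, adjusted p = 0.00463). This was 1 of 9 members, where 6.82% of all genes changed. The call was lost without replicate 2 (adjusted p = 0.118). With the replicate block TJP1 passed after 4 h, too (log2FC = 0.29, adjusted p = 0.00454), with 142, 109.9 and 127 CPM after EGF against 116, 91.1 and 103.

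After 24 h of EGF, 4 of 9 members were called lower than in untreated cells at 24 h, and none higher. Of all genes, 35.8% changed. CLDN7 showed the largest change among the members: it was at 0.560, 1.06 and 1.13 CPM after EGF against 5.93, 5.71 and 4.55 in untreated cells (log2FC = -2.53, SE 0.39, adjusted p = 4.86e-06), near its level at 4 h. CLDN4 was at 5.42, 7.39 and 7.36 CPM against 13.4, 13.9 and 13.2 (log2FC = -0.99, SE 0.21, adjusted p = 0.000383). CLDN18 was at 0.622, 0.541 and 0.673 against 1.23, 1.27 and 1.14 (log2FC = -0.96, SE 0.21, adjusted p = 0.000592), and no library overlapped in any of these. CLDN3 differed less, at 14.0, 17.6 and 15.1 CPM against 20.6, 23.3 and 23.0 (log2FC = -0.50, SE 0.14, adjusted p = 0.00517). Its call was lost without replicate 3 (adjusted p = 0.0881). Untreated CLDN7, CLDN4 and CLDN3 had risen from 4 h to 24 h. With EGF for 24 h, CLDN4 was near its untreated level at 4 h, CLDN3 was not below its own, and CLDN18 was. Only the fall of CLDN7 was past a log2FC of 1, the study's limit, in size. The median over the 9 members was -0.50, against -0.05 over all genes. Markers of cell state moved in the same comparison. Of the epithelial markers 2 of 5 passed, with CDH1 lower past the fold limit and 1 marker higher (median log2FC 0.07). Of the mesenchymal markers 3 of 6 passed, all higher and VIM past the fold limit (median 0.53). Their part in the falls of the claudins was not tested.

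OCLN (2.99, 2.86 and 4.32 CPM against 5.45, 3.28 and 5.44), CLDN23 and CLDN1 passed only with the replicate block, which gave 7 calls in place of 4. There OCLN had a log2FC of -0.45 (adjusted p = 0.00297) and CLDN23 of -0.26 (0.025), whereas CLDN1 was higher after EGF (0.34, 0.000426; 21.6, 23.2 and 30.8 CPM against 17.7, 16.6 and 26.9). The effect of EGF at 24 h differed from that at 4 h for CLDN7 (difference of log2FC = -2.23, adjusted p = 0.0116) and CLDN4 (-0.97, 0.0362), 2 of 9 members where 9.46% of all genes differed. Neither difference was independent of single libraries. That of CLDN4 was lost without any 1 of the replicates and with only the compared groups (0.112; adjusted p without a replicate from 0.0528 to 0.315) and that of CLDN7 without replicate 1 or 2 (0.169 and 0.0976).

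With cetuximab added to EGF, CLDN7 after 24 h was at 1.25, 2.18 and 1.95 CPM and CLDN4 at 6.28, 8.27 and 8.28, each between EGF and untreated cells on average. Against untreated cells CLDN7 (log2FC = -1.59, SE 0.36, adjusted p = 0.00189) and CLDN4 (log2FC = -0.82, SE 0.21, adjusted p = 0.00508) still passed, 2 of 9 members where 18.6% of all genes did. Both calls were lost without replicate 1 (adjusted p = 0.0855 and 0.172), and with the block CLDN3 (-0.35, adjusted p = 0.012) and CLDN1 (0.39, 0.000111) passed as well. Tested against EGF alone, no member passed at either time (0.674% of all genes over both times; 1 and 3 of 9 members at an unadjusted p below 0.05 in edgeR at 4 h and 24 h, and none in DESeq2). With the block, CLDN7 was higher with the antibody than with EGF alone after 24 h (log2FC = 0.96, adjusted p = 0.0155).

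With the replicate block, CLDN1 was lower after 4 h of cetuximab alone in MKN1. Without it, edgeR called no member at 4 h or at 24 h, and DESeq2 called 0 and 0. Of all genes, 1.43% and 10.8% changed, and 1 of 9 members each time had an unadjusted p below 0.05 in edgeR. The levels after 24 h were nevertheless high for CLDN7, with 8.76, 8.17 and 13.8 CPM against 5.93, 5.71 and 4.55, which did not overlap (log2FC = 0.90, SE 0.33, adjusted p = 0.0751). After 4 h, CLDN1 stood at 19.2, 22.7 and 29.5 CPM against 31.8, 34.2 and 48.0 in untreated cells, lower within each replicate number. It passed only with the block (log2FC = -0.68, adjusted p = 1.07e-07, against 0.192 without it). The effect of cetuximab at 24 h did not differ from that at 4 h for any member (0.192% of all genes, 1 of 9 at an unadjusted p below 0.05; 0 with DESeq2).

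**Figure D2:**
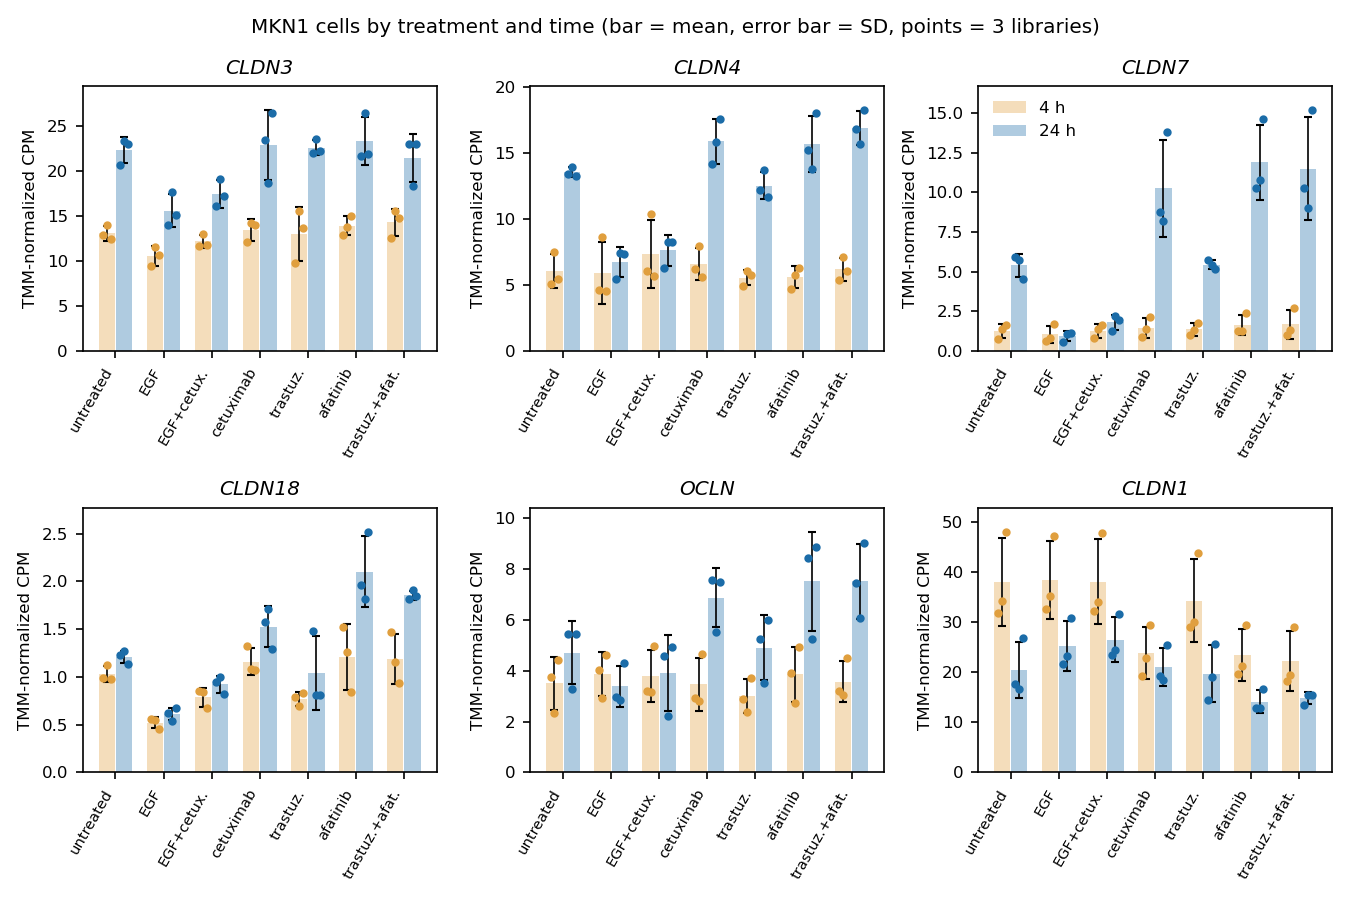
TMM-normalized CPM of 6 members in MKN1 cells by treatment; bars are means of 3 libraries at 4 h (orange) and 24 h (blue), error bars SD and points single libraries. At 24 h, CLDN7 goes from 0.918 CPM with EGF over 5.40 untreated to 11.9 with afatinib, CLDN4 is lower with EGF, and CLDN1 at 4 h is lower with cetuximab and afatinib.

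Afatinib raised CLDN18 in all of MKN1, MKN7 and NCI-N87 after 24 h, and other members in some of these lines. In MKN1, CLDN18 was at 1.96, 1.82 and 2.52 CPM against 1.23, 1.27 and 1.14 in untreated cells (log2FC = 0.77, SE 0.19, adjusted p = 0.00269). CLDN7 rose to 10.3, 10.8 and 14.6 CPM from 5.93, 5.71 and 4.55 (log2FC = 1.12, SE 0.33, adjusted p = 0.0117), a change that is past the study's fold limit. Neither gene overlapped between the groups. These were 2 of 9 members, where 25.6% of all genes changed, and the median was 0.14 over the members and 0.01 over all genes. The call of CLDN18 was lost without replicate 3 (adjusted p = 0.0893) and that of CLDN7 without replicate 2 or 3 (0.0676 and 0.054).

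OCLN and CLDN1 differed in opposite directions within the replicate numbers. OCLN was at 8.43, 5.27 and 8.86 CPM with afatinib against 5.45, 3.28 and 5.44, higher in each number, and CLDN1 was at 12.8, 12.9 and 16.7 against 17.7, 16.6 and 26.9, lower in each. Without the block neither passed (adjusted p = 0.0953 and 0.0941), with it both did (log2FC = 0.65, adjusted p = 2.26e-05 for OCLN and -0.53, 1.46e-06 for CLDN1). After 4 h, no member passed in MKN1 without the block (3.68% of all genes, 1 of 9 at an unadjusted p below 0.05). DESeq2 gave 1 call. CLDN1 was then already at 19.6, 21.3 and 29.3 CPM against 31.8, 34.2 and 48.0 (log2FC = -0.71, adjusted p = 0.0935), and passed with the block (adjusted p = 1.57e-08). The effects at 24 h and 4 h did not differ for any member in MKN1 (2.77% of all genes, 0 of 9 at an unadjusted p below 0.05; 0 with DESeq2). With the block, the difference of OCLN passed (0.54, adjusted p = 0.0283).

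In MKN7 cells, afatinib changed 3 of 9 members after 24 h, where 51.6% of all genes changed. CLDN18 rose to 2.97, 2.47 and 3.70 CPM from 1.89, 1.30 and 1.76 (log2FC = 0.88, SE 0.18, adjusted p = 0.000405). CLDN3 rose to 22.8, 17.0 and 22.8 from 16.4, 11.4 and 11.2 (log2FC = 0.67, SE 0.18, adjusted p = 0.00314), with every treated library above every untreated one. CLDN7, in contrast, fell to 52.2, 43.5 and 58.2 CPM from 64.9, 58.5 and 80.4 (log2FC = -0.41, SE 0.13, adjusted p = 0.0114), and here the highest treated library lay within 1 CPM of the lowest untreated one. The fall of CLDN7 was lost with scaling by library size alone (log2FC = -0.29, adjusted p = 0.0512) and without replicate 1 (0.0689), and the rise of CLDN3 without replicate 3 (0.0916). None of these passed the fold limit. The median over the members was 0.20, against 0.04 over all genes. With the block CLDN4 (log2FC = 0.20, adjusted p = 0.00133) and TJP1 (0.36, 0.000195) passed too.

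After 4 h, CLDN3 was the member called in MKN7, 1 of 9 where 22.2% of all genes changed, at 11.2, 7.96 and 13.6 CPM against 7.43, 5.90 and 7.09 (log2FC = 0.65, SE 0.19, adjusted p = 0.0144). The call was lost without replicate 1 or 3 (adjusted p = 0.081 and 0.181). CLDN18 stood lower at that time, at 0.813, 0.931 and 0.899 CPM against 1.30, 1.24 and 1.24, without passing (log2FC = -0.55, SE 0.21, adjusted p = 0.0634). Its log2FC thus had the opposite sign at the later time, and the difference of the 2 effects passed (24 h minus 4 h = 1.43, adjusted p = 0.00111), as 1 of 9 members where 18.0% of all genes did. This difference held without any 1 replicate. With the block, the lower CLDN18 at 4 h passed (adjusted p = 0.0155), as did CLDN7 (-0.20, 0.00204) and CLDN1 (-0.30, 0.00894).

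NCI-N87, the line with the most ERBB2 RNA (median 12454 CPM untreated, against 3885 in MKN7 and 149 in MKN1), changed in most members after 24 h of afatinib. The test called 7 of 9, where 62.5% of all genes changed, so that the share is close to the background. The median over the members was 0.35, against 0.03 over all genes. CLDN3 rose to 27.5, 21.6 and 28.6 CPM from 15.1, 12 and 13.0 (log2FC = 0.92, SE 0.18, adjusted p = 0.000117) and CLDN18 to 0.961, 1.03 and 0.85 from 0.409, 0.569 and 0.353 (log2FC = 1.06, SE 0.36, adjusted p = 0.0137), with no overlap. CLDN12 rose to 7.18, 5.56 and 5.40 from 3.54, 3.77 and 4.24 (log2FC = 0.62, SE 0.17, adjusted p = 0.00343). CLDN4, the most abundant member per kilobase, was at 906, 698 and 862 CPM against 687, 589 and 563 (log2FC = 0.39, SE 0.14, adjusted p = 0.0212), and CLDN7 at 65.7, 58.3 and 63.9 against 52.5, 45.8 and 45.9 (log2FC = 0.35, SE 0.11, adjusted p = 0.00927).

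CLDN1 and OCLN fell in NCI-N87. CLDN1 was already low and went to 0.349, 0.142 and 0.283 CPM from 0.798, 0.674 and 0.331, with 1 treated library above the lowest untreated one (log2FC = -1.25, SE 0.45, adjusted p = 0.0195). OCLN was at 18.9, 16.2 and 16.6 CPM against 20.8, 20.9 and 25.2 (log2FC = -0.40, SE 0.13, adjusted p = 0.0085). Both calls depended on the scaling: with library size alone the median of all genes shifted by 0.26 on the log2 scale, and CLDN1 had a log2FC of -1.0 (adjusted p = 0.0673) and OCLN of -0.14 (0.389), whereas CLDN4 and CLDN7 had 0.65 and 0.61. Without replicate 3, the calls of CLDN18, OCLN, CLDN4 and CLDN7 were lost (adjusted p = 0.0744, 0.176, 0.24 and 0.0589). That of CLDN1 was lost without replicate 1 or 2 (0.121 and 0.226) and that of OCLN also without replicate 2 (0.0661) and with at least 10 counts in every library (0.0522). The rises of CLDN3 and CLDN12 held in each of these. With the block, CLDN23 (-0.41, adjusted p = 0.00693) and TJP1 (-0.22, 0.0267) passed too.

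After 4 h, NCI-N87 differed in CLDN23, which fell to 5.61, 4.30 and 4.33 CPM from 10.1, 7.75 and 7.83 (log2FC = -0.85, SE 0.25, adjusted p = 0.0205), with no overlap. It was 1 of 9 members, where 18.2% of all genes changed, and the call was lost without replicate 2 or 3 (adjusted p = 0.112 and 0.123). With the block, CLDN3 (0.44, adjusted p = 0.00292) and OCLN (-0.26, 0.0326) passed as well. No difference between the effects at 24 h and 4 h passed for a member (35.8% of all genes, 4 of 9 at an unadjusted p below 0.05; 4 with DESeq2). With the block 6 of them did, the largest being CLDN1 (-1.51, adjusted p = 0.0146).

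**Figure D3:**
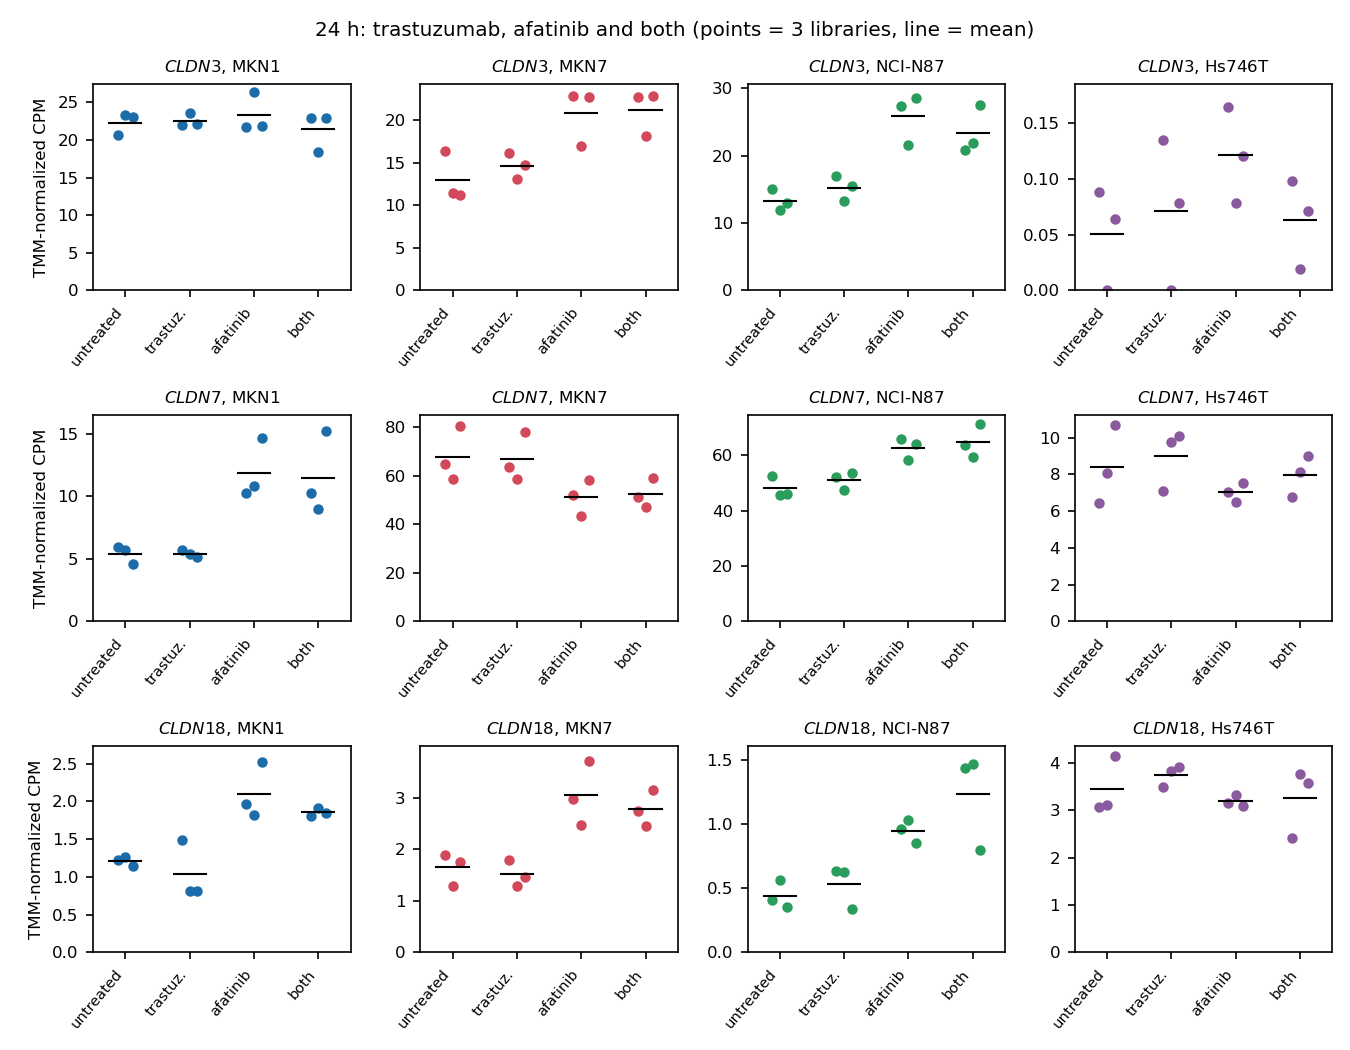
TMM-normalized CPM of CLDN3, CLDN7 and CLDN18 after 24 h in each line without treatment and with trastuzumab, afatinib or both; points are single libraries and lines means of 3, and each panel has its own axis from 0. CLDN18 is higher with afatinib in MKN1, MKN7 and NCI-N87, CLDN3 in MKN7 and NCI-N87, CLDN7 goes up in MKN1 and NCI-N87 and down in MKN7, and in Hs746T the groups overlap.

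The comparison of trastuzumab + afatinib with trastuzumab repeats the test of afatinib in other libraries, with trastuzumab in both groups. Since same-numbered libraries deviated together in most contrasts within a line, it is not fully independent of the comparison with untreated cells. In MKN1 after 24 h it gave CLDN18 (log2FC = 0.81, adjusted p = 0.00191) and CLDN7 (1.05, 0.0161), where 27.9% of all genes changed. Here CLDN7 was at 10.3, 9.0 and 15.2 CPM against 5.72, 5.41 and 5.15. In MKN7 it gave CLDN18 (0.86, 0.000754), CLDN3 (0.52, 0.0208) and CLDN7 (-0.36, 0.0286), where 44.4% of all genes changed. CLDN18 was at 2.75, 2.45 and 3.14 CPM against 1.79, 1.29 and 1.45 in that line. In NCI-N87 it gave CLDN18 (1.18, 0.00575), CLDN12 (0.74, 0.000806), CLDN3 (0.60, 0.00606) and CLDN7 (0.32, 0.0157), 4 of 9 against 61.8% of all genes. CLDN1 (-0.77, adjusted p = 0.148) and OCLN (-0.09, 0.56) did not pass there. Without single replicates several of these calls were lost: in MKN1 those of CLDN18 (adjusted p = 0.0835 without replicate 2) and CLDN7 (0.0737 and 0.0631 without 2 or 3). In MKN7 it was those of CLDN3 (0.0971 and 0.141 without 1 or 3) and CLDN7 (0.146 and 0.0612 without 1 or 2, and 0.107 with library size alone). In NCI-N87 it was those of CLDN3 (0.14 without 3) and CLDN7 (0.0606 and 0.0882 without 1 or 3). The calls of CLDN18 in MKN7 and NCI-N87 held without any 1 replicate.

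After 4 h the same comparison called no member in MKN1 (3.08% of all genes, 2 of 9 at an unadjusted p below 0.05) or MKN7 (20.5%; 1 of 9), whereas DESeq2 called 0 and 1. In NCI-N87 it called CLDN23 (6.74, 3.78 and 5.37 CPM against 15, 8.89 and 9.88; log2FC = -1.10, adjusted p = 0.00311) and OCLN (-0.40, 0.0293), where 19.7% of all genes changed. OCLN was lost there without replicate 2 or 3 and with library size alone (adjusted p = 0.145, 0.104 and 0.0963). With the block, CLDN1 passed in MKN1 (-0.64, adjusted p = 1.20e-07) and MKN7 (-0.32, 0.00547). So did CLDN18 in MKN1 (0.61, 0.0416) and CLDN7 (-0.26, 0.000161) in MKN7. CLDN3 passed with the block in MKN7 (0.47, 0.00265) and in NCI-N87 (0.46, 0.00202).

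Whether the effect of afatinib itself differed between lines was tested with interaction contrasts over all libraries. At 24 h, the effect on CLDN7 in MKN1 differed from that in MKN7 (difference of log2FC = 1.54, SE 0.34, adjusted p = 0.000898), 1 of 9 members where 7.61% of all genes differed. It differed from Hs746T as well (1.39, 0.00812; 4.41% of all genes). Between MKN1 and NCI-N87 (28.0%), the effects on OCLN (1.04, 0.0126), CLDN3 (-0.89, 0.00761) and CLDN12 (-0.92, 0.0382) differed. CLDN18 differed from Hs746T in MKN7 (1.00, 0.0137; 18.8%) and in NCI-N87 (1.20, 0.00315; 35.1%). In MKN1 it passed only with the block (0.91, adjusted p = 0.00169, against 0.0821 without). No member passed between MKN7 and NCI-N87 (21.4% of all genes, 3 of 9 at an unadjusted p below 0.05 in edgeR; DESeq2 was not run on these contrasts). There the block called CLDN7 (-0.78, 3.17e-06), which fell in the one line and rose in the other, as well as CLDN1, OCLN and TJP1.

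Each of these differences was lost without replicate 3, with adjusted p between 0.0535 (CLDN7, MKN1 against MKN7) and 0.512 (CLDN7, MKN1 against Hs746T), with the exception of CLDN12, which was lost without replicate 1 or 2 (0.102 and 0.28). CLDN7 against both lines and CLDN18 in MKN7 against Hs746T were also lost without replicate 2 (adjusted p = 0.0656, 0.137 and 0.0891). At 4 h, CLDN23 was the member that passed: its fall in NCI-N87 differed from MKN1 (0.88, adjusted p = 0.043), MKN7 (1.12, 0.00843) and Hs746T (NCI-N87 minus Hs746T = -0.89, 0.0138). Over the 6 pairs of lines at 4 h, 2.77% of all tests passed. CLDN23 lost these calls, too, without replicate 2 or 3 (adjusted p from 0.0982 to 0.696), and that against MKN1 also without replicate 1 (0.121).

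**Figure D4:**
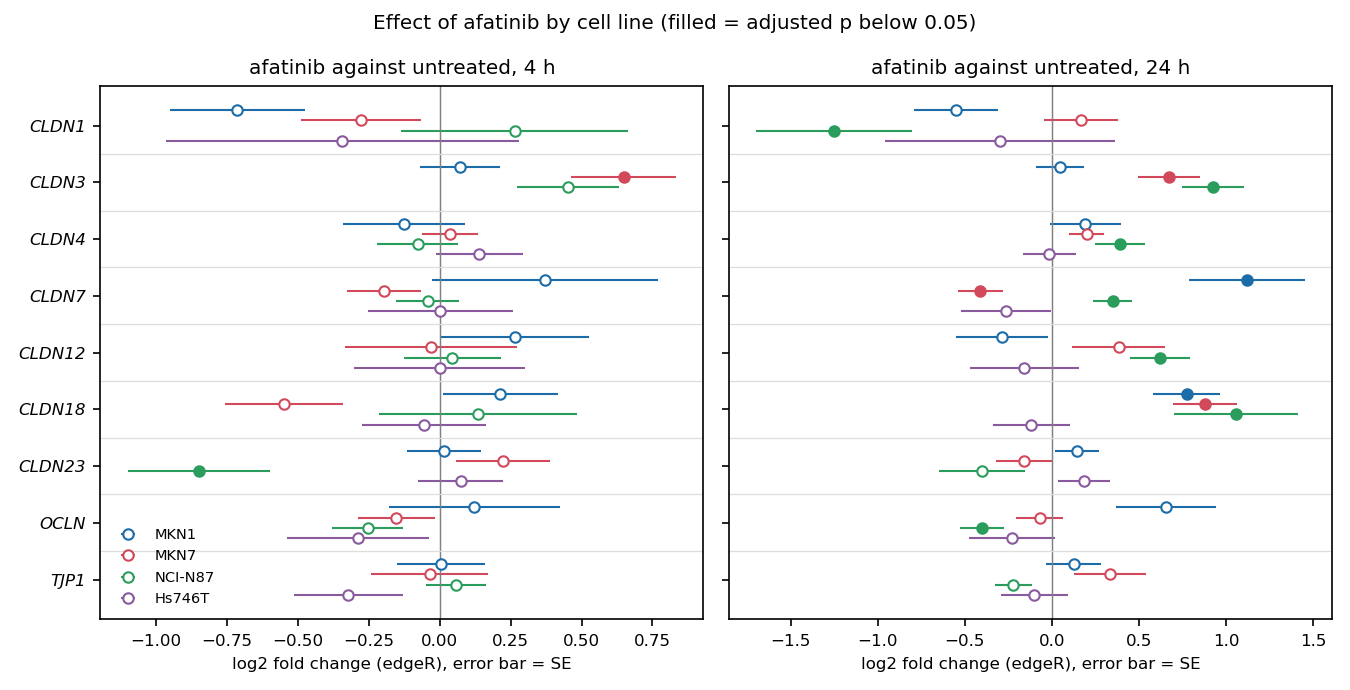
Log2 fold changes (edgeR, error bars SE) of 9 members after afatinib against untreated cells, at 4 h (left) and 24 h (right), by line; filled symbols passed an adjusted p of 0.05, and CLDN3 was not tested in Hs746T. At 24 h CLDN18 is filled in 3 lines (0.77, 0.88 and 1.06), CLDN7 lies at 1.12 in MKN1 and -0.41 in MKN7, and no symbol of Hs746T is filled.

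In Hs746T the test without a block called none of the 8 members tested, in any of 16 treatment contrasts. Of all tests over all genes, 0.00% passed. In edgeR 0 of 128 tests of a member and a contrast had an unadjusted p below 0.05, and DESeq2 called none. Few genes of any kind did: from 125 (trastuzumab, 24 h) to 1371 (afatinib, 4 h) of 18667. Without a block, the shared deviation of same-numbered libraries (mean r of 0.61 at 4 h and 0.75 at 24 h) stays in the spread. The absent calls therefore do not show that effects were absent. After 24 h of EGF, for example, CLDN4 was at 437, 307 and 323 CPM against 421, 290.4 and 333 in untreated cells and CLDN7 at 5.81, 8.73 and 9.31 against 6.42, 8.06 and 10.7. Here the libraries of replicate 1 had more CLDN4 than the others in both groups. After afatinib, CLDN18 was at 3.16, 3.32 and 3.08 against 3.07, 3.10 and 4.14. With the block 2 tests passed, both after 4 h of afatinib: OCLN (5.07, 3.11 and 4.05 CPM against 5.67, 4.92 and 4.76; log2FC = -0.31, adjusted p = 0.0199) and TJP1 (136, 107 and 123 against 178, 148 and 146; -0.32, 0.00217). The effect of EGF after 24 h differed between MKN1 and Hs746T for CLDN7 (MKN1 minus Hs746T = -2.48, SE 0.39, adjusted p = 2.27e-06), CLDN18 (-1.16, 0.0156) and CLDN4 (-1.04, 0.00208), where 7.93% of all genes differed. CLDN7 held without each replicate in turn, whereas CLDN4 was lost without replicate 3 (0.0626) and CLDN18 without replicate 2 or 3 (0.332 and 0.101). At 4 h no member differed (0.920% of all genes, 1 of 9 at an unadjusted p below 0.05), and TJP1 passed with the block (0.45, 0.00307).

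By the test without a block, trastuzumab alone changed no member in any of 8 contrasts over the 4 lines and both times. Over MKN1, MKN7 and NCI-N87, 0.00% of all tests passed. In edgeR 2 of 70 member tests had an unadjusted p below 0.05, and DESeq2 called none. In NCI-N87 after 24 h, CLDN4 was at 747, 611 and 651 CPM against 687, 589 and 563 (log2FC = 0.12, SE 0.14) and OCLN at 20.4, 19.8 and 16.9 against 20.8, 20.9 and 25.2 (-0.24, SE 0.13), so that the groups overlapped for CLDN4 but not for OCLN (adjusted p = 1 and 1). With the block 1 test passed, that of CLDN1 in MKN7 after 24 h (191, 129 and 148 CPM against 143, 95.4 and 119.7; log2FC = 0.40, adjusted p = 0.0415).

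How the members moved together was described by Pearson's r of their mean log2 CPM over the conditions of a line. In MKN1, CLDN4 and CLDN7 had an r of 0.97 over 14 conditions, CLDN7 and OCLN of 0.95, and CLDN4 and OCLN of 0.93. CLDN1 ran against them, with -0.85 to CLDN3 and -0.78 to CLDN4. In NCI-N87, CLDN4 and CLDN7 had 0.93 over 8 conditions, but in MKN7 -0.67 over 8 and in Hs746T -0.41 over 14, where both genes hardly varied. For OCLN and CLDN7, r was 0.33 in MKN7, -0.22 in Hs746T and -0.50 in NCI-N87. CLDN3 and CLDN18 had 0.71 in MKN1, 0.80 in MKN7 and 0.77 in NCI-N87. In Hs746T, where CLDN3 was near 0, r was -0.18. The conditions of a line share a line and replicate numbers, the times fall into separate groups of points, and no test was made.

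**Figure D5:**
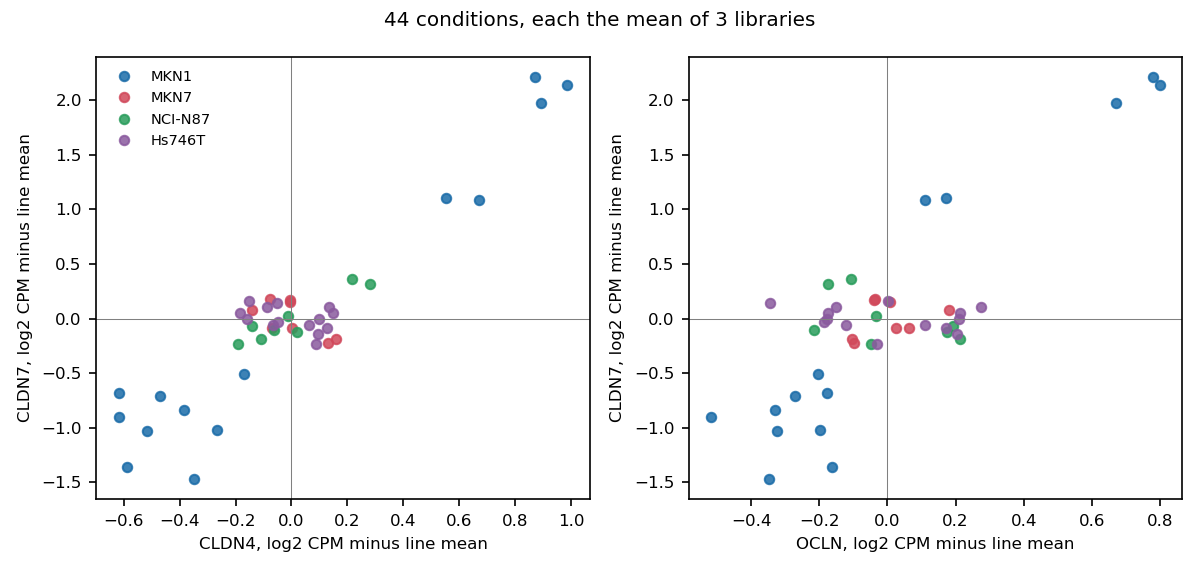
Mean log2 CPM of CLDN7 minus its mean in the line, against the same of CLDN4 (left) and of OCLN (right), for 44 conditions coloured by line. The MKN1 conditions run from low to high in both genes of a pair (0.97 and 0.95 in Pearson's r), whereas those of the other lines stay near 0 on the CLDN7 axis.

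The genes whose levels, centred within each line, were most like a member over the 44 conditions were ranked by Pearson's r among 10929 genes. For CLDN4 these were PHKB (0.95), F11R (0.95) and PATJ (0.93), and for CLDN7 F11R (0.96), RAB17 (0.95) and SP6 (0.95). F11R (JAM-A) and PATJ are themselves tight junction proteins, but none of the 3 genes of CLDN4 or of CLDN7 was among the first 3 by Spearman's rho. For OCLN they were SLC35F5 (0.94), TNFSF15 (0.92) and MARVELD2 (0.91), of which MARVELD2 (tricellulin) is a relative of occludin, and of these MARVELD2 was not among the first 3 by Spearman's rho. CLDN3 was most like ELF3 (0.84), MCF2L (0.84) and RFTN2 (0.81), and CLDN1 most like TGFB2 (0.86), P3H2 (0.84) and CNN2 (0.82). CLDN18 was most like SEC31B (0.92), HLA-DMA (0.92) and ALDH3B1 (0.88), CLDN23 most like SPATA2L (0.81), PLSCR1 (0.79) and PCGF2 (0.78), CLDN12 most like EFCAB13 (0.79), LRRC39 (0.77) and AC093668.2 (0.76) and TJP1 most like DST (0.80), GSK3B (0.78) and SUCO (0.78). Over all members, 14 of the 27 genes stayed in the first 3 by Spearman's rho. An r over all lines need not hold within each. CLDN4 and CLDN7 had 0.92 over the 44 conditions, with 0.97 in MKN1 and 0.93 in NCI-N87 but -0.67 in MKN7 and -0.41 in Hs746T. Likeness to other genes was not computed within single lines.

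Among 42 other tight junction genes, 2 were at 0 in all libraries and 34 to 35 were tested per line. After 24 h of EGF, 15 of 35 changed in MKN1 (7 up, 8 down; 35.8% of all genes), with a median log2FC of -0.14. The falls past the fold limit were those of TJP3 (ZO-3; -2.22), PATJ (-1.87), MARVELD3 (-1.39) and F11R (-1.22), which stood beside the falls of CLDN7 and CLDN4. In untreated MKN1 from 4 h to 24 h, 12 of 35 changed (9 up, 3 down), a share close to the 34.1% of all genes, again with TJP3 (1.78), PATJ (1.35) and F11R (1.03) past the limit. These 2 comparisons share the untreated libraries at 24 h. After 24 h of afatinib in MKN1, 8 of 35 changed, where 25.6% of all genes did, among them CGNL1 (1.01), F11R (0.78) and PATJ (0.65) upwards and the claudins CLDN11 (-1.26) and CLDN10 (-1.06) downwards.

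In MKN7 after 24 h of afatinib 15 of 34 changed (11 up, 4 down, median 0.20), a share below the 51.6% of all genes, with CGNL1 (1.37), TJP3 (1.26), CLDN9 (1.25) and CLDN16 (1.18) past the limit. In NCI-N87 it was 22 of 35 (10 up, 12 down, median 0.04), a share close to the 62.5% of all genes, with CLDN14 (2.45), CLDN9 (1.84), TJP3 (1.77), MAGI2 (1.73) and PRKCZ (1.09) up and CLDN5 (-1.74), ILDR2 (-1.61), CLDN10 (-1.27) and JAM3 (-1.16) down. These claudins were scarce: untreated medians in NCI-N87 were 0.143 CPM for CLDN14, 0.547 for CLDN9 and 0.559 for CLDN5. In Hs746T none of 34 changed in any treatment. CLDN6, which is not a member, set MKN7 apart with a median of 319 CPM untreated, against at most 0.433 in the other lines.

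Of 19 transcription and splicing regulators of epithelial genes, 9 of 18 tested changed in MKN1 after 24 h of EGF, where 35.8% of all genes did. ESRP1 (-1.36), OVOL2 (-1.05) and ELF3 (-0.96) fell. The 6 that rose included ZEB1 (0.55) and SNAI2 (0.62), but also genes of the list that are not repressors of epithelial genes. ELF3, the gene most like CLDN3, rose after 24 h of afatinib in MKN1 (0.48), MKN7 (1.45) and NCI-N87 (1.60). In NCI-N87 12 of 18 changed, a share close to the 62.5% of all genes, among them SNAI1 (-1.94) and ZEB1 (-0.67), repressors of epithelial genes, downwards and GRHL3 (1.94) and KLF4 (1.19) upwards. The epithelial markers did not rise with them: 3 of 5 passed there, all lower, with the keratins KRT8 and KRT18 past the fold limit (median log2FC -0.80). In MKN7, where 8 of 16 changed against 51.6% of all genes, KLF4 fell (-1.31), and 4 of 5 epithelial markers were lower (median -0.56). Of 6 mesenchymal markers, 2 were lower in NCI-N87 after 24 h of afatinib, with FN1 past the fold limit. In MKN7 and in MKN1, 1 of 6 was higher and none lower. The regulators named for afatinib are a selection, and the directions of the others that changed are not given. The part of these genes in the changes of the claudins was not tested.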

How the data were processed

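RNA sequencing counts of all libraries were used, which the authors deposited as raw counts per Ensembl gene. Per the labels, mRNA was selected by poly(A) and libraries were made with a directional kit and sequenced as read pairs; the submitters' processing notes name Trim Galore, STAR and hg38, whereas the counting tool and annotation are not given in the sources used here. Symbols were assigned from GENCODE release 29. For 8404 identifiers there was no entry (0.0422% of counts), and they stayed in the fits. The members and gene lists were chosen with earlier results of these data known. The named genes were the 10 members, genes of the lists past the log2FC limit of 1 or referred to beside a member, and the 3 genes most like each member.

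Tests used edgeR 4.0.16 in R 4.3.3 (quasi-likelihood, TMM factors 0.871 to 1.23, filterByExpr at 10 counts per library and 15 in total) with 1 fit per line, and joint fits for comparisons of lines. P-values were adjusted over all genes by the Benjamini-Hochberg method, and calls used an adjusted p of 0.05. CPM for correlations had a prior count of 2. DESeq2 1.42.0, other scalings and filters, a replicate block, and fits without each replicate were alternatives. Scripts were tested on simulated data in which 200 genes were changed.

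Depth ran from 25832557 to 69434151 counts, so that 3 counts were 0.0432 to 0.116 CPM. No 2 libraries held identical values. All 37 mitochondrial identifiers were listed at 0. Same-numbered libraries deviated together (every pair above a correlation of 0.1) in 45 of 48 contrasts within a line, as found in the data rather than stated in the labels. The block is therefore given beside results of those contrasts. It is not given for the other 3, which are cetuximab, trastuzumab + afatinib against untreated cells, and trastuzumab + afatinib against trastuzumab, in MKN1 at 24 h. The summed counts of calls with the block do include them. Between lines the numbers did not pair libraries.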

Additional observations from a re-analysis of the deposited data

Results flagged for a closer look

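The following results stood out because the effect of a treatment differed between times or lines by a test of the difference itself (edgeR, difference of log2FC with the adjusted p, 3 libraries a group). In MKN1 the effect of EGF at 24 h minus that at 4 h was -2.23 for CLDN7 (adjusted p = 0.0116) and -0.97 for CLDN4 (0.0362). In MKN7 the effect of afatinib at 24 h minus that at 4 h was 1.43 for CLDN18 (0.00111). The effect of EGF at 24 h in MKN1 minus that in Hs746T was -2.48 for CLDN7 (2.27e-06), -1.16 for CLDN18 (0.0156) and -1.04 for CLDN4 (0.00208).

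The effect of afatinib at 4 h on CLDN23 differed by 0.88 between MKN1 and NCI-N87 (adjusted p = 0.043), by 1.12 between MKN7 and NCI-N87 (0.00843) and by -0.89 between NCI-N87 and Hs746T (0.0138). At 24 h it differed for CLDN7 by 1.54 between MKN1 and MKN7 (0.000898) and by 1.39 between MKN1 and Hs746T (0.00812). Between MKN1 and NCI-N87 it differed by 1.04 for OCLN (0.0126), by -0.89 for CLDN3 (0.00761) and by -0.92 for CLDN12 (0.0382). For CLDN18 it differed by 1.00 between MKN7 and Hs746T (0.0137) and by 1.20 between NCI-N87 and Hs746T (0.00315). Of these 16 differences, those of CLDN18 in MKN7 between the times and of CLDN7 after EGF between MKN1 and Hs746T kept their call without each replicate in turn.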

How the results depend on the processing

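No call of a member reversed its sign in any alternative. Of 119 calls, 105 of 106 passed with DESeq2, 110 with library size alone, 113 without the filter, 114 with only the compared groups, 100 of 103 with at least 10 counts in every library, and 118 with the replicate block, but 99, 89 and 82 without replicate 1, 2 and 3. Scaling by library size alone moved the median log2FC of all genes by over 0.1 in several contrasts, from -0.20 (EGF, 24 h, MKN1) to 0.31 (trastuzumab + afatinib against untreated cells, 24 h, NCI-N87). The depth limits CLDN18, CLDN12, low CLDN1 and the CLDN3 of Hs746T most.

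Over 36 contrasts of a treatment with untreated cells, 35 member calls became 72 with the replicate block and 8 with the fold limit, and 23 to 29 without a replicate. For EGF + cetuximab against EGF, the count went from 0 to 1 with the block. For trastuzumab + afatinib against trastuzumab, 11 calls became 26 with the block and 3 with the fold limit, and for untreated 24 h against 4 h 6 became 11 and 2. These block counts of treatments include the MKN1 contrasts at 24 h for which the block was otherwise left out. The block in the comparison of times was chosen after seeing the data. Differences of the afatinib effect between lines went from 10 to 32 with the block, 5 with the fold limit and 1 to 9 without a replicate. Differences between 24 h and 4 h went from 3 to 7 with only the compared groups, DESeq2 or library size alone, 5 without the filter, 6 with at least 10 counts in every library, 17 with the block and 1 to 3 without a replicate. The EGF effect of MKN1 against Hs746T went from 3 to 5 with the block and 1 to 3 without a replicate. With the block, trastuzumab gave 1 call and Hs746T 2, in place of 0. At 24 h, calls after EGF in MKN1 went from 4 to 7 with the block and 1 with the fold limit. After afatinib they went in MKN1 from 2 to 4 and 1 (1 to 2 without a replicate), in MKN7 from 3 to 5 and 0, and in NCI-N87 from 7 to 4 with at least 10 counts in every library, 2 with the fold limit and 3 to 6 without a replicate. Untreated MKN1 at 24 h against 4 h went from 5 to 2 with the fold limit and 3 to 5 without a replicate. The 51 differences between untreated lines became 44 at 24 h alone and 36 with the fold limit. The cause of these shifts was not tested.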
